A study of Mus musculus with 12 samples.

Results

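The miRNAs of the blood vessel wall were followed in small RNA from the prefrontal cortex (PFC) of C57BL/6 mice. The miRNAs were chosen by name as known vessel miRNAs, with earlier results of these data known, and no measured value enters the choice: both arms of the endothelial miR-126a (mmu-miR-126a-3p and mmu-miR-126a-5p) and the smooth muscle miRNAs mmu-miR-143-3p and mmu-miR-145a-5p, given below without the species prefix. They are 4 of 1422 mature and predicted miRNAs in the data, and all 4 passed the filter for testing (at least 5 counts in at least 3 libraries), as did 780 miRNAs in all. The mice went through cocaine-conditioned place preference (CPP), a test of drug reward. SS mice received saline only, CS mice cocaine and saline, MS mice L-methionine (MET) and saline, and MC mice both MET and cocaine. By the labels, MET was injected under the skin at 1 g/kg, 2 times a day for 10 days (a legend of the study names a lower dose), and the mice were killed 2 h after the last behavioural test. Each group had 3 libraries, each made from the pooled RNA of 2 animals (adult males by the study's methods), so the spread between libraries is that between pools. All 4 groups are of 1 strain and went through the same procedure. The labels name a wider region (prefrontal cortex) for tissue that the protocol calls medial PFC.

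miR-126 is made from an intron of Egfl7, a gene of endothelial cells, and keeps endothelial cells responsive to vascular growth factors. It is widely used as a marker of endothelium. miR-143 and miR-145 come from a neighbouring pair of hairpins, are driven by serum response factor and myocardin, and support the contractile state of smooth muscle cells. One arm of a hairpin is usually loaded into Argonaute and kept, while the other is mostly degraded, so the ratio of the arms is a property of processing and loading as well as of stability.

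The sequence of the most abundant of them is shown because its seed, the bases that pair with targets, sets what it can bind, and because the opposite strand of the same locus also gives miRNAs. The mature sequences come from RefSeq (build GRCm38.p6), with the seed (bases 2 to 8) in capitals:
miR-126a-3p: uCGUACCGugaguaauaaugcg
miR-126b-5p: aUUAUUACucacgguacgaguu
miR-126b-3p: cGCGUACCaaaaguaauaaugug
miR-126a-3p lies at chr2:26591402-26591423 on the plus strand. No other mature miRNA among the 1738 entries of the table shared its seed. miR-126b-5p lies at chr2:26591399-26591420 on the minus strand, where 19 of its 22 bases are the exact complement of miR-126a-3p. miR-126b-3p lies on the same minus strand at chr2:26591363-26591385. The hairpin of miR-126a spans 73 bases at chr2:26591357-26591429, and its 3p arm is in capitals here:
Mir126a hairpin: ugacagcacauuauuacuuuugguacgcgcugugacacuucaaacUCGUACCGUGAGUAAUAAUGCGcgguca
In the GENCODE M21 annotation of GRCm38 the hairpin sits within Egfl7 (chr2:26580014-26593120, plus strand). Of the 19 annotated transcripts of Egfl7, 9 span the hairpin, and in 8 of these it is wholly intronic. Of the 4 miRNAs, 1 had a mature entry in the RefSeq table, as did 1160 of the 1374 mature miRNAs listed.

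The depth of the libraries was 7.77 to 11.1, in units of 1000000 counts, of which 56.1 to 67.9% fell on miRNAs. No pair of libraries was a duplicate: over 526 miRNAs the smallest chi-square per degree of freedom among 66 pairs was 155. By the profiles of 125 miRNA precursor families the libraries fell into 3 sets. These were set A (SS replicate 12, CS replicates 8 and 9), set B (SS 13 and 14, the 3 MS libraries and MC 20) and set C (CS 10, MC 16 and 17). The sets were not balanced over the groups: set A held no MET library and set C no SS library. MET and set were thus partly confounded. The labels name no batch, and the sets were used as 1 alternative. MC replicate 16 stood apart. Its miRNAs had a median log2 CPM (counts per 1000000 counts of the library) that was 0.58 below the mean of the other 11 libraries, and its TMM factor, a scaling factor for library composition, was the lowest (0.675, against at most 1.26). Neuronal miRNAs marked the tissue as brain, led by miR-124-3p (30002 to 176336 CPM). The summed level of the 6 on the list was 180729 to 272503 CPM in SS, 140797 to 246101 CPM for CS, 126421 to 256852 CPM for MS and 104453 to 150430 CPM for MC. Every MC library lay below every SS library, but CS replicate 8 (140797 CPM) and MS replicate 4 (126421 CPM) lay within the MC range. The share of all miRNAs with such a split in CPM was not counted. Scaling mattered for directions: the median log2 fold change of all tested miRNAs was 0.03 for CS against SS with TMM factors and 0.31 without them. It was -0.03 and 0.21 for MS against SS, 0.14 and 0.28 for MC against SS, and 0.06 and -0.27 for the interaction of cocaine and MET.

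All 4 vessel miRNAs were found in every library. miR-126a-3p was the most abundant and ranked between place 14 and 30 among the miRNAs of a library. It had a mean level of 6938 ± 1596 CPM (SD, n = 12) and 21566 to 96457 counts. miR-143-3p followed with 3505 ± 967 CPM (SD, n = 12) and ranks of 30 to 61. miR-126a-5p had 479 ± 187 CPM (SD, n = 12) and ranks of 79 to 119, and miR-145a-5p 41.8 ± 15.8 CPM (SD, n = 12) and ranks of 205 to 261, with 184 to 741 counts per library. The order of the 4 was the same in each of the 12 libraries. Over the 11 libraries other than MC replicate 16 the ranges of neighbours in that order did not overlap; in that library miR-126a-3p (2776 CPM) lay below the other libraries' levels of miR-143-3p, and miR-143-3p (776 CPM) lay within their range of miR-126a-5p. In bulk tissue a lower level can come from fewer cells of a type or from less RNA per cell, which cannot be told apart. Together the 4 took a mean of 1.75% of the miRNA counts: 1.55 ± 0.06% in SS, 1.82 ± 0.15% in the CS group, 2.05 ± 0.35% in MS and 1.56 ± 0.76% for MC (SD, n = 3 each). The spread in MC came from replicate 16, with 0.675%, against 1.96% and 2.03% in the other two.

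The other products of the same loci were scarce. miR-145a-3p, the opposite arm of miR-145a-5p, lay between 2.70 and 12.0 CPM. miR-126b-5p lay between 0.115 and 0.972 CPM and miR-126b-3p between 0 and 0.752 CPM, at no more than 8 and 6 counts per library. miR-143-5p had 1 count in MS replicate 3, 2 counts in MS replicate 4 and 0 in the other libraries, which allows up to 3 counts in each of those (counting error only). Neither of the miR-126b products nor miR-143-5p can be compared between groups at this depth. Reads counted on precursor families rather than on a mature arm were also fewer, at 128 to 413 CPM for the mir-126 family, 25.5 to 150.4 CPM for mir-143 and at most 1.63 CPM for mir-145.

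Within groups the spread of each vessel miRNA lay below the median of the tested miRNAs, for miR-143-3p only a little. The tested miRNAs include scarce ones, and the comparison was not matched for level. On the log2 scale of TMM-scaled CPM the pooled SD between libraries of 1 group was 0.21 for miR-126a-3p, 0.30 for miR-145a-5p, 0.35 for miR-126a-5p and 0.49 for miR-143-3p, against a median of 0.55 over the 780 tested. Only 4.10% of tested miRNAs had a smaller SD than miR-126a-3p, and 42.2% had a smaller one than miR-143-3p.

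**Figure D1:**
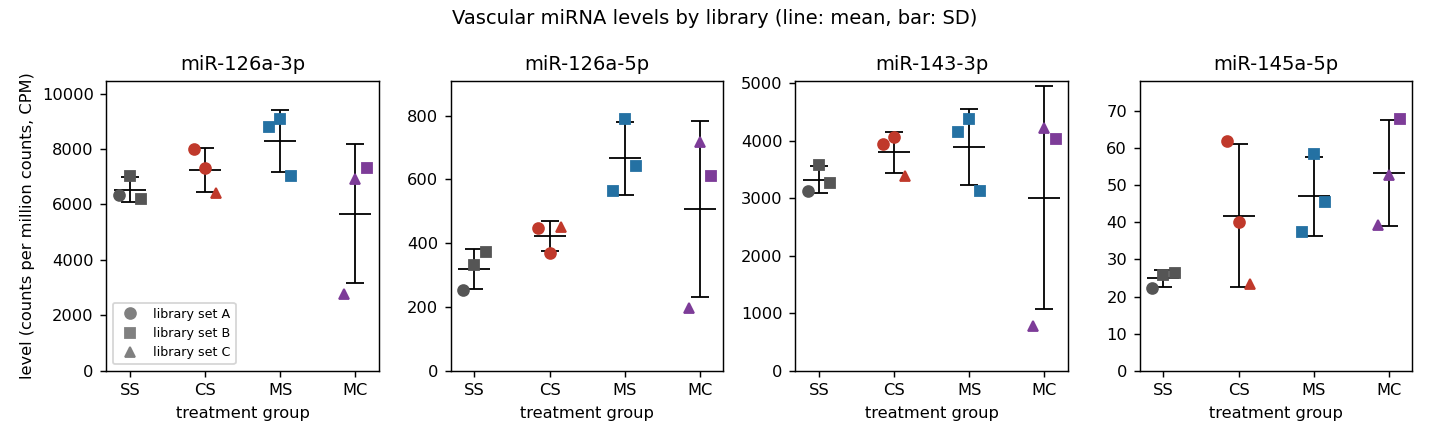
Levels of the 4 vessel miRNAs (vertical axes, CPM, each starting at 0) in the 3 libraries of each group, with lines for the mean and bars for the SD and the shape of each point for its library set. MC replicate 16 is the lowest library for 3 of the 4 (2776 CPM for miR-126a-3p) but not for miR-145a-5p (39.4 CPM), whose SS libraries all lie at or below 26.5 CPM.

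The first comparisons asked how cocaine, MET and their combination went with the levels of the endothelial pair. miR-126a-3p was at 6339.5, 7042 and 6206 CPM in SS libraries, at 8016, 7304 and 6427 CPM in CS libraries, at 8794, 9087 and 7026 CPM in MS libraries, and at 2776, 6904 and 7330.0 CPM in those of MC. The 4 groups overlapped on this scale, with MC replicate 16 far below the other 11 libraries. miR-126a-5p was at 252, 332 and 373 CPM with saline only, at 449, 369 and 452 CPM in CS libraries, at 564, 790.0 and 643 CPM in MS libraries, and at 196, 717 and 610.2 CPM in MC. All MS libraries lay above all SS libraries for the 5p arm, as was so for 18.7% of tested miRNAs. They also lay above all CS libraries, but no such share was counted for that comparison, so nothing is drawn from it. MC held both the lowest library and 2 of the higher ones.

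None of the 4 vessel miRNAs was called by edgeR's quasi-likelihood test (Benjamini-Hochberg adjusted p of at most 0.05 over 780 miRNAs) in any of the 9 comparisons, and of all tested miRNAs 0 were called (0% in each comparison). At an unadjusted p under 0.05, edgeR found 22 (2.82%, CS against SS), 75 (9.62%, MS against SS), 58 (7.44%, MC against CS), 65 (8.33%, MC against MS) and 104 (13.3%, MC against SS) of all miRNAs. It found 103 (13.2%) for the main effect of MET, 25 (3.21%) for that of cocaine, 34 (4.36%) for their interaction and 59 (7.56%) among the 4 groups. The same counts for the 4 vessel miRNAs were 0, 2, 0, 1 and 1, then 2, 1, 0 and 1. DESeq2 called 13 miRNAs for MS against SS, 7 for MC against SS, 16 for the main effect of MET and 13 among the 4 groups, and 0 in the other comparisons. Among those calls was 1 vessel miRNA, miR-145a-5p in MC against SS.

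The 2 arms of miR-126a gave different values with MET. For MS against SS, miR-126a-5p had a log2 fold change of 0.81 ± 0.30 (SE; edgeR adjusted p = 0.397), and miR-126a-3p one of 0.09 ± 0.20 (SE; adjusted p = 0.937). Over both drug arms the main effect of MET was 0.53 ± 0.21 for the 5p arm (SE; edgeR adjusted p = 0.297) and -0.11 ± 0.14 for the 3p arm (SE; adjusted p = 0.776). Without MC replicate 16 the value of the 5p arm was 0.71, with an edgeR adjusted p of 0.046, in a fit that called 19 miRNAs, all of them higher with MET. With library set as a covariate it was 0.30, with an edgeR adjusted p of 0.863. Both arms were without a difference past the threshold in CS against SS, at 0.16 ± 0.29 for 5p and -0.12 ± 0.20 for 3p (SE; edgeR adjusted p = 0.994 for both).

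The 3p arm, the abundant one, had its lowest scaled levels in MC mice. On the TMM-scaled log2 scale the MC libraries stood at 12.0, 12.5 and 12.6, and the lowest of the other 9 libraries was at 12.63. The fold changes were -0.44 ± 0.20 against SS, -0.32 ± 0.20 against CS and -0.52 ± 0.20 against MS (log2, SE), with edgeR adjusted p-values of 0.386, 0.616 and 0.561. All 3 comparisons use the same MC libraries. For MC against SS, miR-124-3p of the neuronal list had a log2 fold change of -1.85 and miR-9-5p one of -0.60 (edgeR adjusted p = 0.370 for both). The median of that list was -0.50. Beside 13.3% of all tested miRNAs, 2 of the 6 neuronal miRNAs had an unadjusted edgeR p under 0.05. Their part in the values of the vessel miRNAs was not tested. In raw CPM the groups overlapped, since MC replicates 17 and 20 lay between 6904 and 7330.0 CPM. All 3 MC libraries below all libraries of the other group was also found for 8.46% of tested miRNAs against SS, 4.36% against CS and 4.23% against MS.

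The next comparisons asked the same of the smooth muscle pair. miR-143-3p was at 3128, 3576 and 3263 CPM in the SS libraries, at 3936, 4065 and 3396 CPM in those of CS, at 4155, 4381 and 3133 CPM in those of MS, and at 776, 4221 and 4031 CPM in MC. The groups overlapped, and apart from MC replicate 16 all libraries lay between 3128 and 4381 CPM, with MC replicates 17 and 20 above the SS libraries. miR-145a-5p was at 22.4, 25.8 and 26.5 CPM with saline only, at 61.8, 40.2 and 23.3 CPM in the CS libraries, at 37.3, 58.4 and 45.4 CPM in those of MS, and at 39.4, 52.7 and 67.9 CPM in MC. The SS libraries were thus the lowest but for CS replicate 10, and every MS and MC library lay above every SS library.

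For miR-143-3p the log2 fold changes lay between -0.45 (MC against SS) and -0.03 (MS against SS), with SE of about 0.35 and edgeR adjusted p-values of 0.578 and 0.991. For miR-145a-5p they were 0.95 ± 0.29 for MC against SS (SE; edgeR adjusted p = 0.370), 0.66 ± 0.28 for MS against SS (SE; adjusted p = 0.499) and 0.43 ± 0.28 for CS against SS (SE; adjusted p = 0.994). The value for CS against SS moved with the setting, to 0.19 without CS replicate 8 and 0.75 without TMM factors. The 3 comparisons share the SS libraries, which held 184 to 293 counts of this miRNA. The DESeq2 value for MC against SS was 0.98, with an adjusted p of 0.038. The main effect of MET on miR-145a-5p was 0.59 ± 0.20 (log2, SE; edgeR adjusted p = 0.259), and that on miR-143-3p -0.21 ± 0.25 (SE; adjusted p = 0.767).

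Counted by overlap in CPM, 2 of the 4 (miR-126a-5p and miR-145a-5p) had all MS libraries above all SS libraries, and so had 18.7% of tested miRNAs. One of the 4 (miR-145a-5p) had all MC libraries above all SS libraries, as had 9.49% of tested miRNAs. None of the 4 was without overlap for CS against SS, where 12.3% of tested miRNAs had all CS libraries higher. The median log2 fold change of the 4 was 0.37 for MS against SS, -0.01 for MC against SS, -0.03 for MC against CS and -0.41 for MC against MS. Over all tested miRNAs it was -0.03, 0.14, 0.08 and 0.05.

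**Figure D2:**
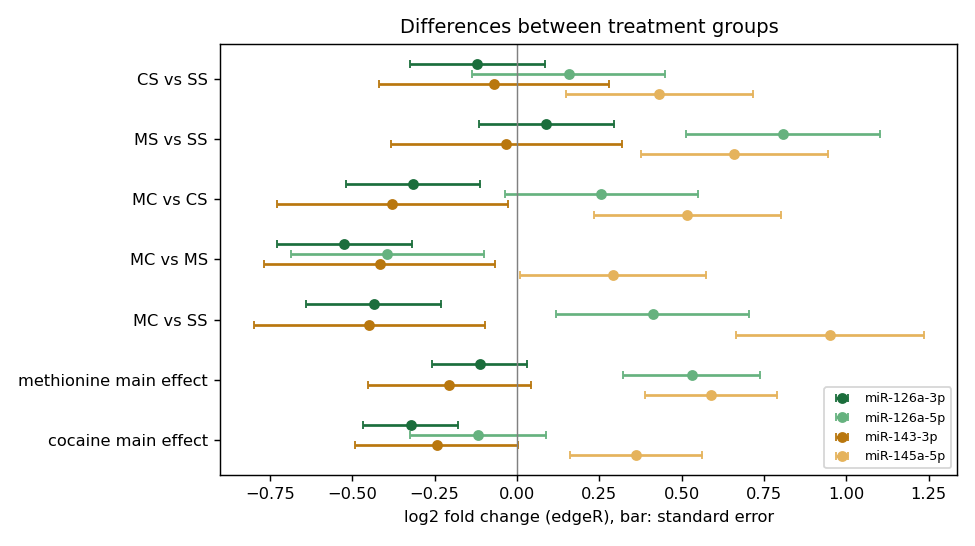
Fold changes of the 4 vessel miRNAs between groups and for the main effects of MET (methionine) and cocaine (horizontal axis, log2, edgeR; bars are SE). The values of miR-145a-5p lie above 0 in all 7 rows, with 0.95 in MC against SS, and those of miR-126a-3p lie below 0 in 6 of them, but none passed the adjusted threshold.

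No interaction of cocaine and MET was found for the 4. The interaction terms were -0.40 ± 0.29 for miR-126a-3p, -0.55 ± 0.41 for miR-126a-5p, -0.35 ± 0.49 for miR-143-3p and -0.14 ± 0.40 for miR-145a-5p (log2, SE), with edgeR adjusted p-values from 0.810 to 0.927. The main effect of cocaine was closest to the threshold for miR-126a-3p, at -0.32 ± 0.14 (log2, SE; edgeR adjusted p = 0.904). The SE of the interaction terms, up to 0.49, leaves differences of that size undetectable at 3 libraries per group.

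The ratio of 2 miRNAs within a library does not depend on library size or scaling, so the pairs were also compared in this way. The 3p to 5p ratio of miR-126a was 25.1, 21.2 and 16.6 in the SS libraries, 17.9, 19.8 and 14.2 in those of CS, 15.6, 11.5 and 10.9 in those of MS, and 14.2, 9.62 and 12.0 in MC. Every library without MET had a higher ratio than every library with MET within the same drug arm, but CS replicate 10 (14.23) and MC replicate 16 (14.20) were nearly equal, and MS replicate 3 (15.6) lay above CS replicate 10. On the log2 scale the means were 4.37 ± 0.30 (SS), 4.10 ± 0.24 (CS), 3.65 ± 0.28 (MS) and 3.56 ± 0.28 (MC; SD of 3 libraries each).

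Among the 4 groups an exact permutation test of F over 15400 partitions gave p = 0.0251, which did not pass the threshold once adjusted over the 4 ratios and shares tested (0.10). Group by group, MS lay 0.73 ± 0.24 below SS and MC 0.54 ± 0.21 below CS (log2, SE), each with an exact two-sided p of 0.1, the smallest that 3 against 3 allows. MC lay 0.08 ± 0.23 below MS (log2, SE, exact p = 0.8), and CS lay 0.27 ± 0.22 below SS (exact p = 0.4). Averaged over the drug arms, a contrast chosen after seeing the data, the ratio with MET was lower by 0.63 (log2), or in linear terms 12.5 and 11.8 in MS and MC against 20.7 and 17.1 in SS and CS. The exact two-sided p was 0.005, the smallest that 400 regroupings within drug arms can give.

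Set against all 220 loci with both arms tested, the difference of miR-126a was not unusual in size. As large a difference or larger, in either direction, was found at 70 loci (31.8%), and 34 loci had one as low or lower. For the MET contrast, 5% of the loci had a lower ratio and 7.73% a higher ratio at an exact p of at most 0.05, and 7.27% had such a p among the 4 groups. Adjusted over the 220 loci, the exact p of miR-126a was 0.183 for MET and 0.566 among the 4 groups. For MET, miR-126a was among 6 loci at the smallest exact p that the test allows (0.005). With 6 loci there, 0.183 was the lowest adjusted p of any locus, so this adjustment could not pass the threshold and sets no locus apart. The SD of its log2 ratio within groups was 0.28, against a median of 0.75 over the loci.

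By library set, the direction was kept but fewer libraries could be compared. In set B the 4 MET libraries all lay below SS replicates 13 and 14, by 0.60 in the mean (log2; exact two-sided p = 0.0667, the smallest that 15 regroupings allow). In set C, MC replicates 16 and 17 lay 0.28 below CS replicate 10 in the mean (log2), and set A held no MET library. With each library centred on its set, the exact permutation p among the 4 groups was 0.101.

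**Figure D3:**
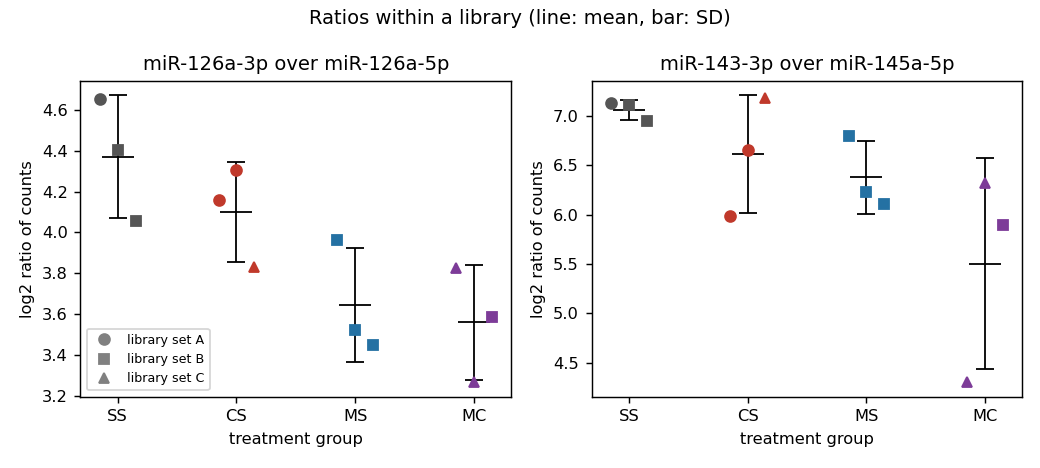
Log2 ratio of counts within each library for the arms of miR-126a (left) and for miR-143-3p over miR-145a-5p (right), by group, with lines for the mean, bars for the SD and the shape of each point for its library set. The left panel steps from a mean of 4.37 in SS to 3.56 in MC, and in the right panel MC replicate 16 is lowest at 4.30.

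**Figure D4:**
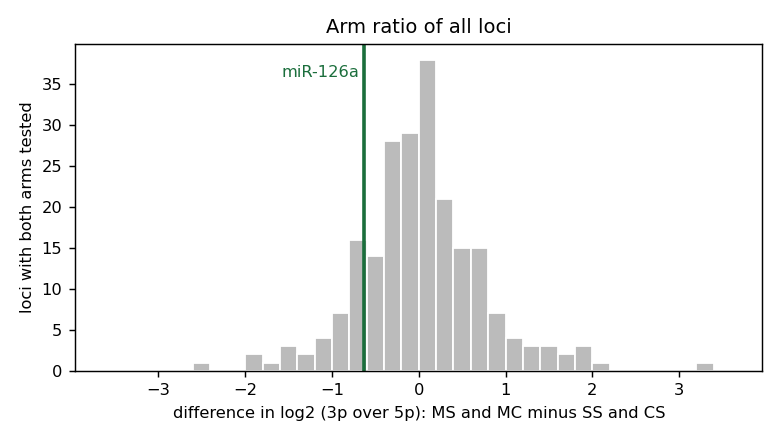
Number of loci (vertical axis) by the difference in log2 3p to 5p ratio between libraries with and without MET (horizontal axis), for the 220 loci with both arms tested. The line marks miR-126a at -0.63, inside the bulk of the distribution, where 34 loci lie as low or lower.

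The second ratio set side by side the pair whose hairpins, on the minus strand of chromosome 18, have only 1301 bases between them. miR-143-3p exceeded miR-145a-5p by 140, 139 and 123 times in the SS libraries, by 63.6, 101 and 145.5 times with CS, by 111, 75.0 and 69.0 times with MS, and by 80.1, 59.4 and 19.7 times in MC. The SS libraries were close together, the CS libraries lay both below and above them, and MS and MC lay wholly below SS. Among the 4 groups the exact permutation p was 0.0568 (0.114 adjusted over 4). With MET the log2 ratio was lower by 0.90 (exact two-sided p = 0.025 over 400 regroupings), a contrast also chosen after seeing the data. Leaving out MC replicate 16 made the difference 0.59, and leaving out CS replicate 9 or 10 raised the exact p to 0.065 or 0.07.

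The endothelial pair held about 2 times the counts of the smooth muscle pair. The summed counts of the arms of miR-126a over those of miR-143-3p and miR-145a-5p gave a ratio of 2.00 to 2.09 in SS, 1.87 to 2.12 for CS, 2.22 to 2.41 for MS and 1.78 to 1.94 in MC replicates 17 and 20. The MS libraries lay above all SS and CS libraries. Against SS the difference was 0.16 ± 0.04 (log2, SE), in a comparison of 3 against 3 libraries that cannot pass the threshold. MC replicate 16 was the exception at 3.64, where miR-143-3p lay further below its level in the other libraries than miR-126a-3p did.

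Across the libraries miR-126a-3p and miR-143-3p varied together, though they come from different chromosomes. On TMM-scaled log2 CPM, Pearson's r was 0.884 over 12 libraries (permutation p = 0.001, 0.005 adjusted over the 6 pairs of the 4 miRNAs) and Spearman's rho was 0.713 (permutation p = 0.012). The relation leaned on MC replicate 16. Without that library r was 0.703 (permutation p = 0.016, 11 libraries), and without the 2 libraries farthest from the median of miR-126a-3p (MC 16 and MS 3) it was 0.631 (permutation p = 0.051). Within set B, r was 0.832 (exact permutation p = 0.06, 6 libraries), and the other sets held too few libraries.

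None of the other 5 pairs had a permutation p under 0.05 over the 12 libraries on the TMM-scaled values. The arms of miR-126a had an r of 0.388 (permutation p = 0.218; rho 0.322, permutation p = 0.311), and one of 0.069 without MC replicate 16. miR-143-3p and miR-145a-5p had an r of -0.460 (permutation p = 0.11; rho -0.434, permutation p = 0.16). The remaining pairs lay between -0.456 and 0.426, with permutation p-values from 0.132 to 0.398. miR-126a-5p and miR-145a-5p had an r of 0.266 (permutation p = 0.398) over all libraries, 0.544 without MC replicate 16 (permutation p = 0.086) and 0.759 within set B (exact permutation p = 0.092). Without TMM factors the arms of miR-126a correlated at 0.732, and miR-126a-5p and miR-143-3p at 0.701. The result for these pairs thus depended on the scaling, and no p without TMM factors is given here.

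**Figure D5:**
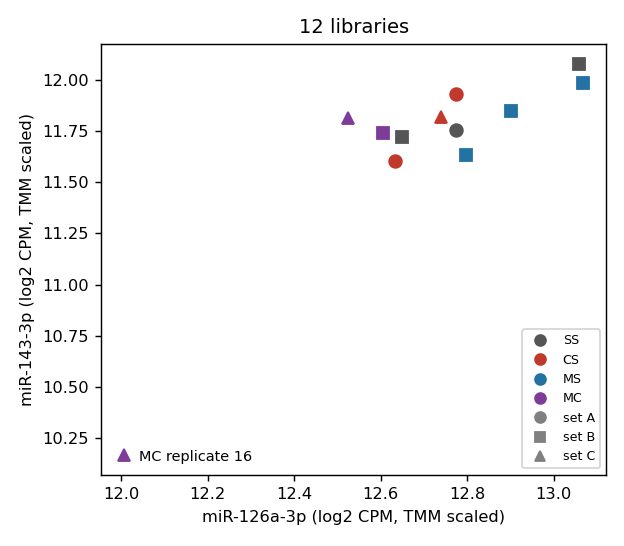
miR-143-3p against miR-126a-3p in the 12 libraries (both axes log2 CPM, TMM scaled), coloured by group, with point shapes for the library sets. MC replicate 16 lies alone at the lower left, and the remaining 11 libraries give an r of 0.703.

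Among 346 miRNAs with a mean of at least 10 CPM, the profile most like that of miR-126a-3p over the 12 libraries was that of miR-143-3p (r = 0.884), followed by miR-3071-5p (0.879) and miR-27a-3p (0.873). Without MC replicate 16, miR-143-3p took place 3 and the other two fell to 0.616 and 0.609. For miR-126a-5p the closest were miR-3074-2-3p (0.941), miR-140-5p (0.935) and miR-30b-5p (0.915), and these values changed little without that library (0.931, 0.919 and 0.902). For miR-143-3p they were miR-499-5p (0.956), miR-582-5p (0.940) and miR-411-5p (0.938), which fell to 0.622, 0.244 and 0.589 without it. For miR-145a-5p they were miR-329-5p (0.770), miR-129-2-3p (0.740) and miR-133a-3p (0.730), with 0.773, 0.677 and 0.666 without it. All points share the library totals and scaling.

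Other miRNAs known from vessels spanned a wide range of levels. The list of 14 (13 tested) held miR-24-3p, part of the miR-23a cluster, at 2788 to 19155 CPM, miR-21a-5p, which is induced in many cell types under stress, at 338 to 9181 CPM, miR-23a-3p at 1589.9 to 4543 CPM, and the fibroblast and pericyte miRNAs miR-199a and miR-214 at low levels. None of the 13 was called in any comparison. At an unadjusted edgeR p under 0.05 there were 5 in MC against SS, where 13.3% of all tested miRNAs had such a p, and 0 or 1 in each other comparison. Those 5 were miR-130a-3p (0.55), miR-199a-5p (1.85) and miR-214-3p (1.88) higher, and miR-23a-3p (-0.48) and miR-27a-3p (-0.89) lower (log2), each with an edgeR adjusted p of 0.370. The list's median log2 fold change there was 0.44, against 0.14 over all tested miRNAs.

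Blood in the vessels was followed by 5 red cell miRNAs, led by miR-451a. Their summed level was 1517 to 2232 CPM in SS, 2400 to 2687 CPM for CS, 2587 to 3992 CPM for MS and 465 to 3615 CPM for MC, so that the SS libraries lay below all others but MC replicate 16. None was called. At an unadjusted edgeR p under 0.05, 2 of the 5 had a MET main effect, as had 13.2% of all tested miRNAs. These were miR-144-3p at 1.21 and miR-486b-5p at 2.20 (log2, edgeR adjusted p = 0.259 and 0.249). The list's median was 1.17, against 0.06 over all tested miRNAs. That median was the value of miR-144-5p, at 0 to 0.999 CPM, which is too scarce to stand for the list. The list was not uniform: miR-486a-5p was at -1.34, and the abundant miR-451a at 0.15 (edgeR adjusted p = 0.395 and 0.873). Reads of miR-486a-5p may not be separable from those of miR-486b-5p, so these may not be separate markers. Of 6 leukocyte and microglia miRNAs, 0 were called, and their sums overlapped between all groups (1042 to 2747 CPM). For the main effect of MET, 2 of the 6 had an unadjusted edgeR p under 0.05, as had 13.2% of all tested miRNAs. These were miR-223-3p at 2.11 and miR-142a-5p at 1.07 (log2, edgeR adjusted p = 0.311 and 0.249). The median over the list was 0.70, while miR-155-5p was at -1.23 and miR-146a-5p at -0.36. For MC against CS, miR-223-3p and miR-142a-5p were at 3.52 and 1.27 (edgeR adjusted p = 0.577), with a list median of 0.82. miR-223-3p ran from 1.29 CPM in MC replicate 16 to 166 CPM in its highest library, with a mean of 18.9 CPM, so 1 library can dominate its values. The part of blood and immune cells in the values of miR-126a-5p and miR-145a-5p was not tested. The 6 striated muscle miRNAs summed to 51.7 to 132 CPM, with miR-1a-3p at no more than 3.80 CPM.

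MC replicate 16 carried less of many miRNAs, those of vessels among them. Relative to the mean of the other 11 libraries the difference in log2 CPM was -1.39 for miR-126a-3p, -1.29 for miR-126a-5p, -2.26 for miR-143-3p and -2.72 for miR-451a, but 0.02 for miR-145a-5p. It was -0.58 for the median of all tested miRNAs, -0.89 for neuronal miR-124-3p and -1.70 for miR-9-5p. It was the lowest of the 12 libraries for 3 of the 4 vessel miRNAs, 8 of the 14 other vascular miRNAs, 2 of 5 red cell and 4 of 6 neuronal miRNAs. The same held for 4 of 6 leukocyte and microglia, 4 of 6 striated muscle, 2 of 3 oligodendrocyte and 4 of 5 choroid plexus and epithelium miRNAs. The share of all tested miRNAs that were lowest in this library was not counted, so these counts set no list apart. After TMM scaling the difference for miR-143-3p was -1.64, and 5.64% of tested miRNAs were further down. For miR-126a-3p and miR-126a-5p, 23.8% and 27.6% of tested miRNAs were further down, and for miR-145a-5p 62.6% were. The part of MC replicate 16 in the lower values of MC was not tested beyond leaving it out. That brought miR-143-3p in MC against CS from -0.38 to 0.01 (log2).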

How the data were processed

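Small RNA (18 to 30 nt) of 12 PFC libraries was sequenced on the BGISEQ-500 with reads of 50 nt. By the study's methods, the authors filtered reads, mapped them with AASRA and searched piRBase with Bowtie for what was left; the submitters' processing notes name the mm10 build. The authors deposited raw read counts per small RNA and TPM values (count over library total, times 1000000), which here serve as CPM. Groups were taken from the labels. The quasi-likelihood test of edgeR 4.0.16 (R 4.3.3) was run on the counts, with TMM factors over miRNAs, the library's total as its size, a coefficient for each group (8 residual degrees of freedom), Benjamini-Hochberg adjustment, a filter of 5 counts in 3 libraries and no limit on the fold change. Ratios of counts were compared with exact permutation tests, one-sided in F among the 4 groups and two-sided for differences of means. Correlations were tested with 100000 permutations. Main effects average the 2 strata of the other drug. The alternatives were DESeq2 1.42.0, no TMM factors, TMM factors over all features, at least 10 counts, no filter, a log2 limit of 1, library set as a covariate, a fit over 6 libraries and each library left out. Added after seeing the data were the MET contrast of the ratios, the arm ratios of all loci (0.5 added to each count) and correlations without MC replicate 16. The miRNAs and lists were chosen with earlier results of these data known. The named miRNAs are the 4, the other products of their loci, the 3 with the most similar profile to each, and from each list those called and the most abundant 2. Others, at an unadjusted p under 0.05 or to show the spread of a list, were named after their values were seen. Methods were tested on simulated data. Counting error is small at these depths (184 counts for the least), so the spread between libraries sets the precision. Other steps ran in Python 3.11.15 (matplotlib 3.10.9, numpy 2.4.6, pandas 2.3.3, scipy 1.17.1).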

Additional observations from a re-analysis of the deposited data

Results flagged for a closer look

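One result was set aside for a closer look because cocaine went with opposite directions in the arms with and without MET. For miR-126a-5p all 3 CS libraries lay above the SS mean and all 3 MC libraries below the MS mean (TMM-scaled log2 CPM), and the effects of cocaine in the 2 arms differed by 0.62. The interaction itself was tested with edgeR and gave -0.55 ± 0.41 (log2, SE), with an adjusted p of 0.810 over 780 miRNAs. The margins were narrow in CS, where replicates 8 and 9 were at 8.47 on this scale, beside an SS mean of 8.46, and in MC, where replicate 17 was at 9.26, beside an MS mean of 9.28. In the groups of 3 libraries no test for a single outlying sample was made.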

How the results depend on the processing

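No paired analysis was possible because the groups share no replicate numbers. With 3 libraries a group, only differences well above the spread between libraries can be seen. Of 508 values of single vessel miRNAs under the alternatives, 484 kept their direction and their side of the threshold, 22 changed sign and 2 came past the threshold, namely miR-145a-5p in MC against SS with DESeq2 (0.98, 1 vessel miRNA called) and miR-126a-5p for MET without MC replicate 16 (0 to 1 called over the libraries left out). No value that changed sign was past the threshold on either side; the cause was not tested. Without TMM factors, CS against SS was 0.15 for miR-126a-3p and 0.19 for miR-143-3p, MS against SS was 0.23 for miR-143-3p, and the effect of cocaine on miR-126a-5p was 0.0073 (log2). With library set as a covariate, CS against SS was 0.018 for miR-126a-3p and 0.16 for miR-143-3p, MC against CS was -0.045 for miR-126a-5p, the effect of cocaine on miR-126a-5p was 0.051, and the interaction for miR-145a-5p was 0.077. MS against SS for miR-143-3p was also 0.020 with TMM over all features and 0.037 with at least 10 counts. With libraries left out, the ranges that crossed 0 were -0.030 to 0.23 for miR-126a-5p (past 0 without CS 10) and -0.17 to 0.015 for miR-143-3p (without SS 13 or CS 8, 0.014) in CS against SS; -0.018 to 0.19 for miR-126a-3p (without SS 14) and -0.12 to 0.070 for miR-143-3p (without SS 13 or MS 23, 0.043) in MS against SS; and, past 0 without MC 16, -0.63 to 0.012 for miR-143-3p in MC against CS, -0.17 to 0.023 for miR-126a-3p and -0.33 to 0.032 for miR-143-3p with MET, and -0.23 to 0.037 for miR-126a-5p with cocaine. The interaction of miR-145a-5p ran from -0.34 to 0.10, past 0 without CS 8.

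For the arm ratio of miR-126a the p among the 4 groups was 0.101 with values centred on library sets and 0.016 to 0.0675 with libraries left out. For miR-143-3p over miR-145a-5p it was 0.0097 to 0.144 with libraries left out, and its MET difference ran from -1.10 to -0.59; the MET difference of the miR-126a arms ran from -0.71 to -0.56, with p at most 0.015. For the ratio of the miR-126a arms to the smooth muscle pair the p was 0.0062 to 0.942. The share of the 4 was 1.10% of all counts and 1.69 to 1.84% of miRNA counts with libraries left out. Without TMM factors the correlations became 0.732 (arms of miR-126a), 0.241 (miR-126a-3p and miR-145a-5p), 0.701 (miR-126a-5p and miR-143-3p), 0.589 (miR-126a-5p and miR-145a-5p) and 0.169 (miR-143-3p and miR-145a-5p). Centred on library sets they were -0.591 for miR-126a-3p and miR-145a-5p and 0.572 for miR-126a-5p and miR-143-3p.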
